A study of Mus musculus with 8 samples.

Results

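The 10 genes described here encode transcription factors that set and keep endothelial identity: the ETS factors Erg, Fli1 and Ets1, the SOXF factors Sox7, Sox17 and Sox18, the zinc finger factor Gata2, the basic helix-loop-helix (bHLH) factors Tal1 and Lyl1, and the forkhead factor Foxf1. They were chosen by symbol from the 54532 genes of the deposited count table, and each symbol named 1 row. The RNA came from lung endothelial cells (ECs) of wild-type C57BL/6J mouse pups at day 14. One group of 4 libraries came from pups kept in normoxia (21% O2), and the other group of 4 from pups kept in hyperoxia (80% O2) since postnatal day 0. Hyperoxia after birth is used in mice to model bronchopulmonary dysplasia, a lung disease of preterm infants with simplified vessels and alveoli. The cells were those left after removal with CD45 beads, which take leukocytes, that then bound CD31 beads. No gene was altered in either group. Nothing in the labels says whether the 4 libraries of a group came from separate litters or from pooled pups, so p-values measure the spread between these libraries, which may be partly technical.

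ETS factors bind a short GGAA core and occupy many promoters and enhancers of endothelial genes, and ERG and FLI1 can act on the same sites. SOXF factors act with Notch signalling in arterial specification, with SOX17 the member best known in arteries and SOX18 known in lymphatic vessels. GATA2, TAL1 and LYL1 work together with the bridging proteins LMO2 and LDB1 and the E proteins, in endothelium as in blood progenitors, while FOXF1 is a factor of the pulmonary vasculature and lung mesenchyme whose loss causes a severe malformation of the lung capillaries.

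Libraries held 16098086 to 18300730 counts. The isolate carried the endothelial label in both groups: the 16 pan-endothelial markers summed to 22396 to 23250 CPM (counts scaled to a common library size) in normoxia and 21661 to 22640 CPM in hyperoxia, with Cdh5 (VE-cadherin) at 4121 and 4035 CPM. Single markers moved within that sum: 6 of the 16 were higher and 4 lower in hyperoxia, among them Eng (log2 fold change 0.43), Tek (-0.79) and Calcrl (-0.63). RNA of other cells moved with oxygen: the summed level of 10 markers of type 2 alveolar epithelial cells (AT2) was 292 to 433 CPM in normoxia and 878 to 2630 CPM in hyperoxia, and hyperoxia library 3 was the lowest of its group. Between groups, 5535 of 15564 genes tested, or 35.6%, differed at an adjusted p under 0.05 in the quasi-likelihood test of edgeR, 18.5% higher and 17.1% lower in hyperoxia.

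Of the 10 factors, 6 passed that threshold, and 5 of the 6 were lower in hyperoxia. Ets1, Sox17, Gata2, Lyl1 and Erg fell by 16.1% to 28.2%, Fli1 rose by 32.7%, and Sox7, Sox18, Tal1 and Foxf1 did not pass. The 5 that fell are to be read against 17.1% of all genes tested, against 23.1% of the 9299 genes with a mean of at least 10 CPM (20.7% of which were higher), and against 24.7% of the 961 tested genes that the deposited table assigns to a transcription factor family (14.3% of which were higher). A log2 change is the log2 fold change of hyperoxia over normoxia. The largest absolute value of a member was 0.48, whereas 6.98% of genes tested passed the p threshold with a log2 change of 1 or more in size. In 5 members the libraries of the groups did not overlap in CPM, as was so for 35.4% of all genes tested. The median log2 fold change was -0.004 over all genes and -0.07 over the transcription factor genes. In a bulk library, fewer cells of a type that carries a gene and less of its RNA per cell cannot be told apart.

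Promoter sequences are shown first for members of the ETS, GATA and bHLH families, since ETS, GATA and bHLH factors are known to regulate one another's genes. Windows of 300 bases, from 250 bases before to 50 after an annotated start, were matched by symbol in RefSeq (GRCm38.p6) for 4 of the 10 members, Erg, Gata2, Lyl1 and Tal1. Fli1, Ets1, Sox7, Sox17, Sox18 and Foxf1 were not matched. For each, the window whose start site equals the outer start of the gene in the deposited table is printed 5′ to 3′ on the gene's strand, with the ETS core GGAA, read on both strands (GGAA or TTCC), in capitals. Those of Erg, at chr16:95586544-95586843 (minus strand), of Gata2, at chr6:88193641-88193940 (plus), of Lyl1, at chr8:84701207-84701506 (plus), and of Tal1, at chr4:115056176-115056475 (plus), read as follows.
Erg: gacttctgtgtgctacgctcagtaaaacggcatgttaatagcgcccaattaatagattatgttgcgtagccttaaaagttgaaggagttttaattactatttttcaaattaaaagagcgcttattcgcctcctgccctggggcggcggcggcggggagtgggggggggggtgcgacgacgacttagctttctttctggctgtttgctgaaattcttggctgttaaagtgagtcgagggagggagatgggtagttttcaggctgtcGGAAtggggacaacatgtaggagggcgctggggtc
Gata2: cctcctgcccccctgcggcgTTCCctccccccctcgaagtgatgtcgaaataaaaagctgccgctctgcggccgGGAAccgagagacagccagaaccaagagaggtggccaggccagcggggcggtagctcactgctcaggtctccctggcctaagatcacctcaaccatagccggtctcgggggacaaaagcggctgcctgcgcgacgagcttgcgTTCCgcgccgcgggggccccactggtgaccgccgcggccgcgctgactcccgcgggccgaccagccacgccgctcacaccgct
Lyl1: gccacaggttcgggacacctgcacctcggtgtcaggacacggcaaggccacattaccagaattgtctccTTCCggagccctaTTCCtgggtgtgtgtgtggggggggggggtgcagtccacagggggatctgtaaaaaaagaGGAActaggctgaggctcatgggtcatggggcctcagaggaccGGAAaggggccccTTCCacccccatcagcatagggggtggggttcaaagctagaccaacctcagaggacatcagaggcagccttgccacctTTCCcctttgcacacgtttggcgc
Tal1: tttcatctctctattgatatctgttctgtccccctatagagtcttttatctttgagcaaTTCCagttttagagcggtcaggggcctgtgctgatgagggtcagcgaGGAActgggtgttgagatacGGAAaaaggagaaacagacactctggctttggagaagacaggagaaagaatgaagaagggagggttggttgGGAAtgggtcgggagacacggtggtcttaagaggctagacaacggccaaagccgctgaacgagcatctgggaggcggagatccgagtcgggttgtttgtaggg
The Lyl1 window held 6 matches to GGAA, the Tal1 window 4, the Gata2 window 3 and the Erg window 1. The core is so short that 96.0% of all 32851 promoter windows hold it, with a median of 3 matches, and 15.7% hold at least 6. The GATA core GATAA (or TTATC), which 25.4% of all windows hold, was found once in the Tal1 window and not in those letters in the others shown. The E-box CANNTG, bound by bHLH factors and held by 72.3% of all windows, was found once each in the Lyl1 and Tal1 windows. The SOX core ACAAT (or ATTGT), held by 31.0% of all windows, was found once in the Lyl1 window. Matches of different motifs did not overlap each other in these windows. The 4 genes had 8 windows in all, and those not printed held other matches. For Erg, the window starting 56228 bases from the printed start held 4 matches to GGAA. The Erg window starting 127245 bases away held GGAA 2 times, GATAA 1 time, and ACAAT and CANNTG 2 times each. The unprinted Gata2 window held 1 GGAA and 1 E-box, and that of Tal1 held 4 GGAA. Which start these cells use was not tested. A match is a description of letters and not a bound site.

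Among the ETS factors, Erg and Ets1 fell while Fli1 rose. Erg (chr16:95359169-95586593), which keeps junction and identity genes of endothelium active, stood at 367, 376, 386 and 417 CPM in normoxia libraries 1 to 4 and at 318, 309, 339 and 331 CPM in hyperoxia libraries 1 to 4. Every hyperoxia library was below every normoxia library. Its mean fell from 387 ± 21.7 to 324 ± 13.4 CPM (SD, n = 4), with a log2 change of -0.25 ± 0.052 (SE, adjusted p = 0.00339). Ets1 (chr9:32636221-32757820), a factor of angiogenic endothelium and of lymphocytes, was the most counted of the 3. It stood at 872, 941, 839.7 and 922 CPM in normoxia and 629.8, 667, 681 and 623 CPM in hyperoxia. The groups were again apart, with a gap wider than the spread within either. Ets1 fell from 894 ± 46.3 to 650.2 ± 28.1 CPM, with a log2 change of -0.46 ± 0.052 (SE, adjusted p = 7.50e-05), the smallest adjusted p among the members.

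Fli1 (chr9:32422204-32542861), a close relative of Erg that is also expressed in blood cells, moved the other way. It stood at 98.5, 129.7, 123 and 138 CPM in normoxia and 142, 167, 177 and 164 CPM in hyperoxia. The groups did not overlap, though normoxia library 4 lay just under hyperoxia library 1. Its mean rose from 122 ± 17.1 to 162 ± 14.9 CPM, with a log2 change of 0.41 ± 0.10 (SE, adjusted p = 0.00874). CD45 (Ptprc), by which leukocytes were removed, was at 38.4 and 38.3 CPM and did not pass the test (adjusted p = 0.994). The 10 leukocyte markers summed to 129 to 327 CPM in normoxia and 161 to 321 CPM in hyperoxia. The part of leukocyte RNA in the Fli1 value was not tested.

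The ratio between ETS members within a library does not depend on how libraries are scaled. The log2 ratio of Erg to Fli1 averaged 1.67 ± 0.16 over the normoxia libraries and 1.002 ± 0.12 over the hyperoxia libraries (SD, n = 4), a difference of -0.67 (SE 0.10). That of Fli1 to Ets1 differed by 0.87 (SE 0.11), and that of Erg to Ets1 by 0.21 (SE 0.062). In each of these pairs the groups did not overlap. The exact two-sided permutation p was 0.0286 for each, the smallest that 70 assignments of 8 libraries allow, and 0.0514 after Benjamini-Hochberg adjustment over the 9 pairs of genes compared, so none of these ratios passed 0.05 after adjustment.

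Levels per gene length show how the ETS pool was made up. Fli1 made up 13.9% ± 1.31 of the summed FPKM (fragments per kilobase and library size) of the 3 genes in normoxia and 21.4% ± 1.21 in hyperoxia, and Ets1 41.9% ± 1.67 and 35.4% ± 1.06, without overlap. Erg made up 44.3% ± 1.35 and 43.2% ± 1.44, with overlapping libraries. The sum of the 3 lay between 236 and 267 FPKM in normoxia and between 205 and 228 FPKM in hyperoxia, again without overlap.

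**Figure D1:**
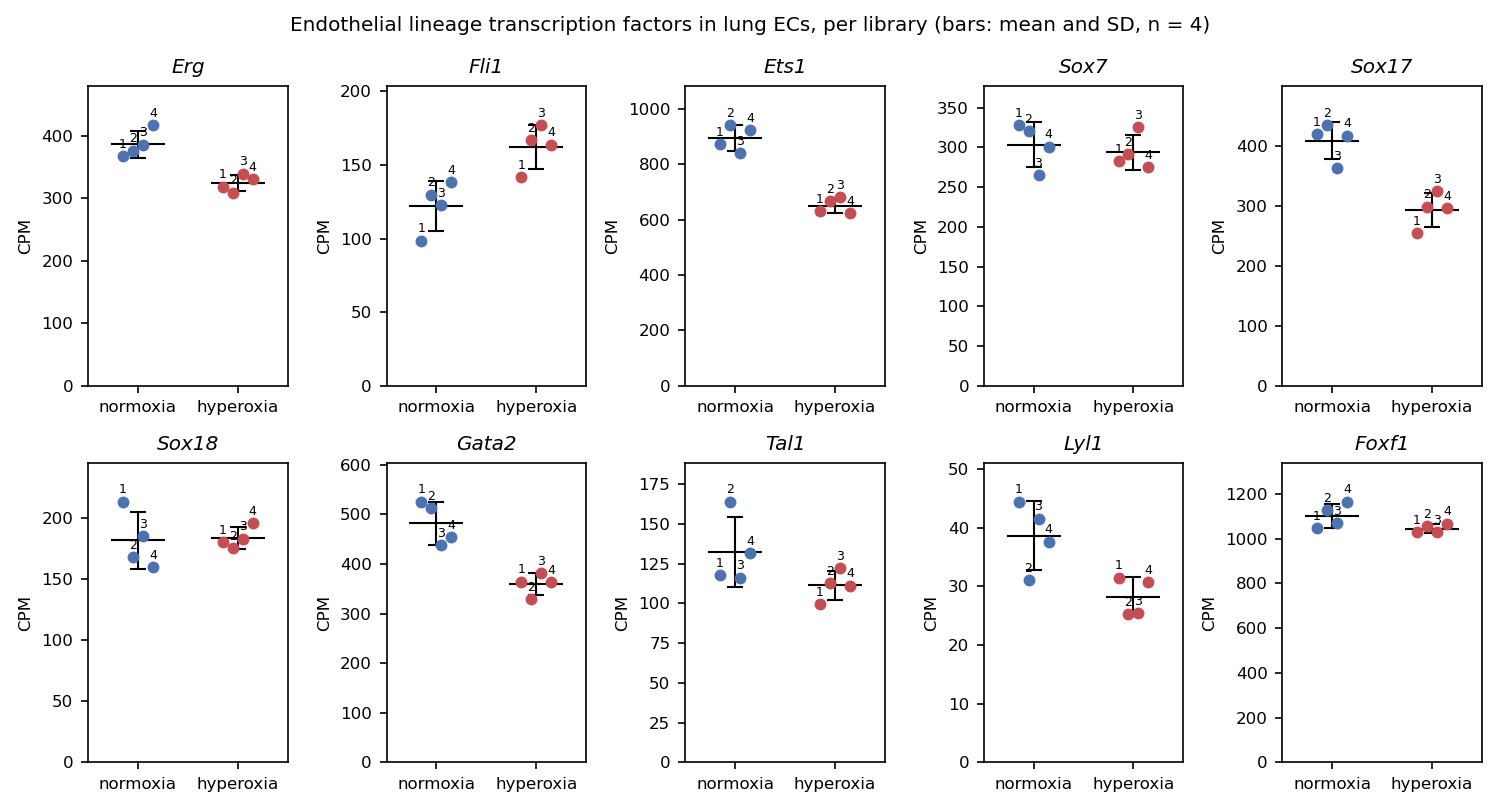
CPM (y axis, from 0) of each of the 10 factors in normoxia (blue) and hyperoxia (red); each point is 1 library, numbered as in the text, and black bars give the mean and SD of 4 libraries. Erg, Ets1, Sox17 and Gata2 lie lower and Fli1 higher in all hyperoxia libraries, while Sox7, Sox18, Tal1, Lyl1 and Foxf1 overlap.

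In the SOXF family, Sox17 fell and its 2 relatives did not pass the test. Sox17 (chr1:4490931-4497354) stood at 420.0, 435, 363 and 417 CPM in normoxia and 255, 299, 324 and 296 CPM in hyperoxia. The groups did not overlap, with normoxia library 3 nearest to hyperoxia library 3. Its mean fell from 409 ± 31.3 to 293 ± 28.8 CPM, with a log2 change of -0.48 ± 0.078 (SE, adjusted p = 0.000815), the largest fall among the members. Of the exon bases of Sox17, 16.8% are shared with Gm37587, a transcript on the other strand, which had a mean of 0.678 CPM. The counting program's strand setting was not given in the sources used here.

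Sox7 (chr14:63943673-63950732), an early endothelial SOXF factor, stood at 328, 320.3, 265 and 301 CPM in normoxia and 282, 291, 326 and 276 CPM in hyperoxia. The hyperoxia libraries lay inside the normoxia range, and the log2 fold change was -0.05 ± 0.074 (SE, adjusted p = 0.655). Sox18 (chr2:181669836-181671640) stood at 214, 168, 186 and 160.2 CPM in normoxia and 180.2, 176, 183 and 196 CPM in hyperoxia. The hyperoxia libraries lay inside the normoxia range, and the log2 fold change was 0.02 ± 0.082 (SE, adjusted p = 0.903), with a sign that turned under 6 of 20 alternative settings.

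Ratios within a library set Sox17 against its relatives. The log2 ratio of Sox7 to Sox17 was -0.43 ± 0.051 in normoxia and 0.00 ± 0.11 in hyperoxia, a difference of 0.43 (SE 0.059), and that of Sox17 to Sox18 differed by -0.50 (SE 0.14), each without overlap (exact permutation p = 0.0286, adjusted 0.0514). The ratio of Sox7 to Sox18 differed by -0.07 (SE 0.13, exact permutation p = 0.629). Of the summed SOXF FPKM, Sox17 made up 29.6% ± 2.05 in normoxia and 23.3% ± 1.36 in hyperoxia without overlap. The shares of Sox18, 38.7% ± 3.59 and 43.0% ± 2.30, and of Sox7, 31.7% ± 1.65 and 33.7% ± 1.68, overlapped, as did the sum, 288 ± 21.5 and 263 ± 12.9 FPKM.

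**Figure D2:**
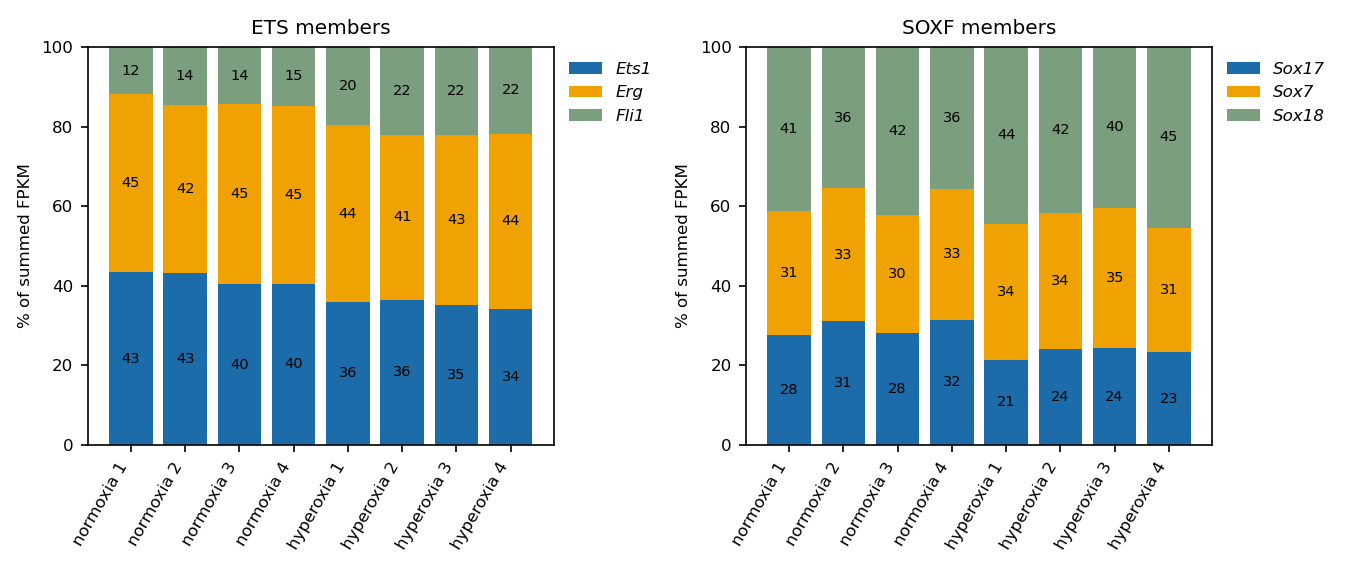
Share (y axis, % of summed FPKM) of each member within the ETS family (left) and the SOXF family (right), with 1 stacked bar per library and the share printed in each block. In hyperoxia the Fli1 block is taller and the Ets1 and Sox17 blocks are shorter in every library.

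Sox17 is known in arteries. Of 10 arterial markers, 5 were lower in hyperoxia and the other 5 did not pass, and the sum of the 10 was 4538 to 5226 CPM in normoxia and 3262 to 3641 CPM in hyperoxia. Gja4, a gap junction protein of arteries, stood at 209.5, 189, 190.0 and 188 CPM in normoxia and 116, 107, 119.9 and 114 CPM in hyperoxia, with a log2 change of -0.77 ± 0.052 (SE, adjusted p = 2.23e-06). Efnb2 (ephrin B2), the ligand that marks arteries, had a log2 change of -0.46 ± 0.086 (SE, adjusted p = 0.00189). Among those that did not pass, named after their values were seen, were Gja5 (log2 change -0.09 ± 0.072, adjusted p = 0.36) and Dll4 (log2 change -0.07 ± 0.062, adjusted p = 0.391). Among 8 lymphatic markers 6 were higher and the others did not pass. Pdpn, among the 6, is also a marker of type 1 alveolar epithelial cells. Lyve1 (954 and 1602 CPM) and Flt4 (289 and 326 CPM), also among them, were far more counted than the rest. Mmrn1 and Reln were called higher with overlapping groups. The part of other ECs in the Lyve1 and Flt4 values was not tested. Prox1, the lymphatic regulator that Sox18 is known to induce, was at 10.9 and 16.6 CPM, with a log2 change of 0.60 ± 0.21 (SE, adjusted p = 0.044). Its groups overlapped, with 8.40 to 13.3 CPM in normoxia and 10.3 to 21.2 CPM in hyperoxia. The part of a changed mix of vessel types in the values of Sox17 and Sox18 was not tested.

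Gata2 (chr6:88193891-88207032), which maintains endothelial identity and also serves blood progenitors and mast cells, fell. It stood at 526, 513, 438 and 454 CPM in normoxia and 365, 329, 382 and 364 CPM in hyperoxia. No hyperoxia library reached the lowest normoxia library. Its mean fell from 483 ± 43.3 to 359.9 ± 21.9 CPM, with a log2 change of -0.42 ± 0.070 (SE, adjusted p = 0.000873).

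Of the bHLH pair, Lyl1 fell and Tal1 did not pass. Tal1 (chr4:115056426-115071755), a factor of early endothelium and blood, stood at 118, 164, 116 and 131 CPM in normoxia and 99.6, 113, 122 and 111 CPM in hyperoxia. Normoxia library 2 stood above all others and hyperoxia library 3 above 2 normoxia libraries, and the log2 fold change was -0.25 ± 0.11 (SE, adjusted p = 0.092). Lyl1 (chr8:84701457-84704715), its close relative, stood at 44.5, 31.0, 41.6 and 37.6 CPM in normoxia and 31.5, 25.3, 25.4 and 30.7 CPM in hyperoxia. Normoxia library 2 fell within the hyperoxia range and the other 3 lay above it. Its mean fell from 38.7 ± 5.82 to 28.2 ± 3.33 CPM, with a log2 change of -0.45 ± 0.12 (SE, adjusted p = 0.0109). The ratio of Tal1 to Lyl1 differed by 0.21 on the log2 scale (SE 0.27, exact permutation p = 0.429), and that of Gata2 to Tal1 by -0.18 (SE 0.13, exact permutation p = 0.2). The fall of Lyl1 was thus not shown to differ from the value of Tal1. The summed FPKM of the pair was 51.3 ± 1.94 in normoxia and 40.9 ± 1.27 in hyperoxia, without overlap. Lyl1 shares 4 exon bases with Nfix on the other strand.

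Gata2, Tal1 and Lyl1 are also genes of mast cells, megakaryocytes and erythroid cells. Of 6 mast cell markers, Cpa3, Tpsb2 and Cma1 passed the filter, each at most at 0.448 CPM in any normoxia library. They passed it only through their hyperoxia libraries, so the filter itself fixed their direction. The list of 6 summed to 0.608 to 1.78 CPM in normoxia and 4.35 to 10.1 CPM in hyperoxia. Of 11 megakaryocyte and erythroid markers, 8 passed the filter, and these did not all move together. Itga2b, a gene of megakaryocytes, rose from 10.9 to 15.1 CPM (log2 change 0.48 ± 0.11, adjusted p = 0.00711). The 3 that were lower were all globins, and the other 4 did not pass the test. That list summed to 132 to 225 CPM in normoxia and 107 to 155 CPM in hyperoxia, and its most counted genes were the globins Hbb-bs and Hba-a1. Hbb-bs, a beta globin, was at 83.5 and 53.0 CPM, and Gata1, the erythroid and megakaryocyte GATA factor, did not pass the filter, with means of 0.0866 and 0.378 CPM. The part of such cells in the values of Gata2 and the bHLH pair was not tested.

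Foxf1 (chr8:121084386-121088144) was the most counted member and did not pass the test. It stood at 1046, 1127, 1069.6 and 1165 CPM in normoxia and 1028, 1055, 1029 and 1067 CPM in hyperoxia. The ranges overlapped, and the log2 fold change was -0.08 ± 0.047 (SE, adjusted p = 0.228). Fendrr (chr8:121054882-121083110), the long noncoding RNA gene that starts next to it on the other strand, stood at 834, 1044, 698 and 871 CPM in normoxia and 699, 756, 788 and 754 CPM in hyperoxia, with a log2 change of -0.20 ± 0.10 (SE, adjusted p = 0.144). The log2 ratio of Foxf1 to Fendrr differed by 0.11 (SE 0.11, exact permutation p = 0.343). Foxf1 is also a gene of lung mesenchyme. Of 10 fibroblast markers 9 passed the filter, 5 of them higher, with sums of 195 to 399 CPM in normoxia and 265 to 692 CPM in hyperoxia, and of 10 mural cell markers 9 passed the filter, 7 of them higher, with sums of 48.1 to 85.1 and 105 to 184 CPM. Col3a1, a fibroblast collagen, was at 78.7 and 139.6 CPM. Dcn, among the fibroblast markers called higher, was at 0.359 and 1.18 CPM and could pass the filter only through its hyperoxia libraries. The part of these cells in the Foxf1 value was not tested. A miRNA gene, Gm27530, shares 98 exon bases with Foxf1 on the other strand and had no counts.

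Per gene length, the members stood in the same order in both groups, except that Ets1 and Sox7 exchanged the places after Erg. In normoxia Foxf1 led at 453 ± 21.5 FPKM, apart from all others. Sox18 (111 ± 14.8), Erg (111 ± 6.29), Ets1 (105 ± 5.12), Sox7 (91.3 ± 8.33), Gata2 (88.7 ± 7.86) and Sox17 (85.0 ± 6.34) followed, and each of them overlapped the next in its libraries. Fli1 (34.8 ± 4.81) and Tal1 (29.9 ± 4.89) also overlapped each other, and Lyl1 (21.3 ± 3.28) came last. In hyperoxia Foxf1 (430.3 ± 8.11 FPKM) was followed by Sox18 (113 ± 5.24), which was apart from Erg (93.1 ± 3.86). Erg and Sox7 (88.6 ± 6.91) overlapped, as did Gata2 (66.3 ± 4.002) and Sox17 (61.2 ± 6.15), with Ets1 (76.3 ± 3.52) apart between these pairs. Fli1 (46.3 ± 4.36), Tal1 (25.3 ± 2.15) and Lyl1 (15.6 ± 1.79) followed, each apart from the next.

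Cofactors and inhibitors of these factors, with the neighbour gene Fendrr, formed a list of 13 genes, all tested. In that list 6 were lower and 1 was higher in hyperoxia, with a median log2 change of -0.19. Over all genes tested, 17.1% were lower and 18.5% higher, with a median of -0.004. Lmo2, which bridges TAL1 or LYL1 to GATA2, stood at 249.9, 228, 238 and 244 CPM in normoxia and 237, 226, 236 and 243 CPM in hyperoxia, with overlapping groups and a log2 change of -0.03 ± 0.045 (SE, adjusted p = 0.682). Ldb1, which binds LMO2 and joins such complexes, stood at 296, 302, 270.4 and 283 CPM and 218, 227, 233 and 229 CPM, without overlap, with a log2 change of -0.34 ± 0.048 (SE, adjusted p = 0.000289). The E proteins are the partners with which TAL1 and LYL1 bind an E-box. Tcf3 (E2A) stood at 201, 220.4, 213 and 215 CPM in normoxia and 161, 155, 166 and 159 CPM in hyperoxia, without overlap, with a log2 change of -0.41 ± 0.045 (SE, adjusted p = 5.72e-05). Tcf4 (E2-2) had a log2 change of 0.19 ± 0.073 (SE, adjusted p = 0.0672) and Tcf12 (HEB) of -0.07 ± 0.050 (SE, adjusted p = 0.314). Neither passed the test.

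All 4 Id genes, whose products bind E proteins and keep them off DNA, were lower in hyperoxia, each without overlap between groups. Of all genes tested, 17.1% were lower and 35.4% did not overlap. Id3 stood at 393, 295, 333 and 294 CPM in normoxia and 200.2, 189, 208 and 199 CPM in hyperoxia, with a log2 change of -0.72 ± 0.087 (SE, adjusted p = 0.000111). Id1 stood at 151, 137, 126 and 132 CPM in normoxia and 112, 119, 122 and 126 CPM in hyperoxia, with normoxia library 3 and hyperoxia library 4 almost touching and a log2 change of -0.19 ± 0.062 (SE, adjusted p = 0.0362). Id2 and the scarce Id4 had log2 changes of -0.52 ± 0.10 (SE, adjusted p = 0.00251) and -0.78 ± 0.13 (SE, adjusted p = 0.00085). Of the other cofactors, Zfpm2 (FOG2), which binds GATA factors, was scarce and rose, from 3.75 to 6.46 CPM (log2 change 0.79 ± 0.23, adjusted p = 0.0222), and Zfpm1 (FOG1) and the TAL1 corepressor Cbfa2t3 did not pass (log2 changes of 0.19 and 0.03). Without hyperoxia library 4 the rise of Zfpm2 was no longer past the threshold, and without hyperoxia library 1 the list held 3 higher genes.

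**Figure D3:**
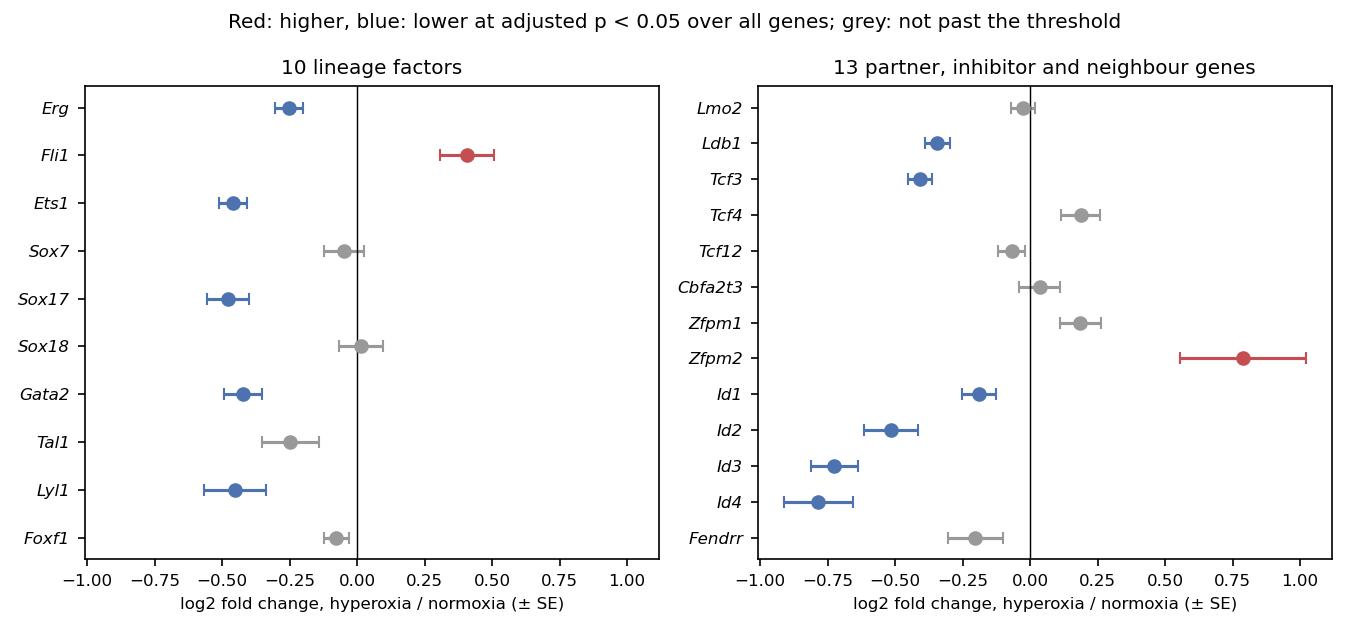
Log2 fold change of hyperoxia over normoxia with its SE (x axis) from edgeR for the 10 factors (left) and the 13 partner, inhibitor and neighbour genes (right). Red and blue points passed an adjusted p of 0.05 over all genes, higher or lower; grey points did not.

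Other genes of the same families were taken from lists of the family. Their counts are to be read against the 35.6% of all genes tested that were called. Of 21 other ETS genes 17 passed the filter, 6 higher and 6 lower. The abundant Elk3 and Elf2 fell with Erg and Ets1: Elf2 stood at 203, 208, 197 and 203 CPM in normoxia and 143, 137, 135 and 132 CPM in hyperoxia (log2 change -0.57 ± 0.042, adjusted p = 3.86e-06), and Elk3, an ETS repressor, had a log2 change of -0.35 ± 0.050 (SE, adjusted p = 0.000376). Ets2 also fell (log2 change -0.20 ± 0.053, adjusted p = 0.0155). Elf4, named after its values were seen, rose from 61.7 to 91.8 CPM without overlap (log2 change 0.57 ± 0.049, adjusted p = 1.10e-05). Those that rose most were scarce. Etv4, a target of fibroblast growth factor signalling, stood at 1.90, 1.31, 1.85 and 1.60 CPM in normoxia and 8.51, 10.5, 8.70 and 9.43 CPM in hyperoxia (log2 change 2.48 ± 0.15, adjusted p = 1.28e-06). Etv5 went from 9.32 to 25.3 CPM and the epithelial Elf5 from 0.411 to 2.62 CPM. Elf5, counted among the 6 higher, could pass the filter only through its hyperoxia libraries, so its direction was fixed by the filter. Ehf, also among the 6 and named after its values were seen, was near the filter. It stood at 0.387 to 0.559 CPM in normoxia and 0.515 to 1.83 CPM in hyperoxia, with overlap. Etv5 is also an AT2 marker, and hyperoxia library 3, lowest in AT2 markers, was lowest of its group in Etv5, at 18.3 CPM. The part of epithelial RNA in the Etv5 value was not tested.

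Of 10 other SOX genes 7 passed the filter, 5 lower and 1 higher. Sox11, a SOXC factor of embryonic tissues, stood at 241, 292, 231 and 281 CPM in normoxia and 115, 96.2, 112 and 102 CPM in hyperoxia, with a log2 change of -1.30 ± 0.085 (SE, adjusted p = 1.85e-06), so that its fall was past the fold threshold that no SOXF gene reached. Sox4, its relative, and Sox13 fell too (log2 change -0.54 ± 0.091, adjusted p = 0.00102, and log2 change -0.39 ± 0.091, adjusted p = 0.00683). Of 5 other GATA genes 3 passed the filter. Gata3 stood at 21.3, 21.1, 19.4 and 17.9 CPM in normoxia and 6.79, 6.57, 7.56 and 7.10 CPM in hyperoxia, with a log2 change of -1.51 ± 0.093 (SE, adjusted p = 1.27e-06), while Gata6 did not pass (log2 change -0.18 ± 0.10, adjusted p = 0.215). The count of lower GATA genes was 1, and 2 without normoxia library 3. Of 19 other FOX genes 17 passed the filter, 5 higher and 5 lower. Foxp1 and Foxo1, both expressed in endothelium, fell (log2 change -0.49 ± 0.064, adjusted p = 0.000188, and log2 change -0.39 ± 0.079, adjusted p = 0.00304). Foxo3, named after its values were seen, rose from 62.3 to 81.0 CPM without overlap (log2 change 0.38 ± 0.073, adjusted p = 0.00234). The epithelial Foxa1 went from 0.155 to 1.92 CPM and could pass the filter only through its hyperoxia libraries.

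Of 22 further factors known in endothelium, 7 were higher and 6 lower, against 18.5% and 17.1% of all genes tested. The median log2 change was 0.13. The 7 became 4 without normoxia library 3 and 3 without hyperoxia library 2. Epas1 (HIF-2 alpha), the most abundant, fell from 6709 to 5471 CPM (log2 change -0.29 ± 0.045, adjusted p = 0.000555). Hey1, a Notch target of arteries, stood at 283, 299.6, 252 and 261 CPM in normoxia and 168, 144, 165 and 155 CPM in hyperoxia (log2 change -0.80 ± 0.068, adjusted p = 1.05e-05). Tbx2 rose, from 349, 273, 348 and 294 CPM in normoxia to 656, 600.2, 545 and 655 CPM in hyperoxia (log2 change 0.96 ± 0.090, adjusted p = 2.06e-05). Tbx2 is also among the markers used for aerocytes.

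Genes known as targets of the members are to be read against the 35.6% of all genes tested that were called. The 4 target lists share genes such as Cdh5, Pecam1 and Tek and are not separate evidence. Of 19 genes linked to ETS factors, 5 were higher, 4 lower and 10 did not pass, with a median log2 change of 0.02. Cdh5, for which ERG is a known activator, had a log2 change of -0.03 ± 0.048 (SE, adjusted p = 0.658), and Pecam1 (CD31), whose product also served to isolate the cells, of -0.04 ± 0.049 (SE, adjusted p = 0.558). Within the same list Tek (TIE2, the angiopoietin receptor) stood at 1173, 1236, 1089 and 1230.0 CPM in normoxia and 664, 689.7, 746 and 627 CPM in hyperoxia (log2 change -0.79 ± 0.063, adjusted p = 6.35e-06), Aplnr, the apelin receptor, fell (log2 change -0.80 ± 0.067, adjusted p = 8.70e-06), and Eng (endoglin) rose (log2 change 0.43 ± 0.039, adjusted p = 1.52e-05).

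Of 7 genes linked to SOXF factors, 3 were higher and the other 4 did not pass, with a median of -0.03, while Sox17 fell. Without normoxia library 1 or library 3, 1 gene of this list was lower. Cldn5 (claudin 5) went from 2066 to 2408 CPM (log2 change 0.22 ± 0.051, adjusted p = 0.00643). Notch1 did not pass (log2 change -0.23 ± 0.099, adjusted p = 0.0936). Of 10 genes linked to GATA2 and TAL1, 5 were higher and 1, Tek, was lower, with a median of 0.21. Vcam1, an adhesion molecule, and Angpt2 rose (log2 change 0.52 ± 0.12, adjusted p = 0.00702, and log2 change 0.54 ± 0.068, adjusted p = 0.000152), and Vwf did not pass (log2 change 0.23 ± 0.10, adjusted p = 0.107). Of 8 genes linked to FOXF1, 3 were higher and 2 lower, with a median of 0.03. S1pr1, the sphingosine 1-phosphate receptor that FOXF1 is known to activate, rose from 580.4 to 936 CPM (log2 change 0.69 ± 0.067, adjusted p = 2.47e-05). The 2 that fell were Tek and Tmem100. Tmem100, named after its values were seen, went from 1043 to 853 CPM without overlap (log2 change -0.29 ± 0.050, adjusted p = 0.00117).

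Markers of the 2 capillary EC types moved in opposite directions beside the factors. Of 10 markers of general capillary cells (gCap), 7 were lower and 1 was higher, summing to 12729 to 14796 CPM in normoxia and 10135 to 11715 CPM in hyperoxia. Kit stood at 879.5, 1035, 838 and 1004 CPM in normoxia and 411, 357, 453 and 317 CPM in hyperoxia. Of 10 aerocyte (aCap) markers, 9 were higher, with sums of 3287 to 4174 CPM and 5451 to 6202 CPM, and Apln stood at 322, 257, 369 and 343 CPM in normoxia and 853, 954, 862 and 1011 CPM in hyperoxia. The groups did not overlap in either sum, nor in Erg, Ets1, Fli1, Sox17 and Gata2, so in these 8 libraries a changed mix of capillary types and changed levels of the factors within a type cannot be told apart. Of 8 venous markers 7 passed the filter, of which 4 were higher.

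**Figure D4:**
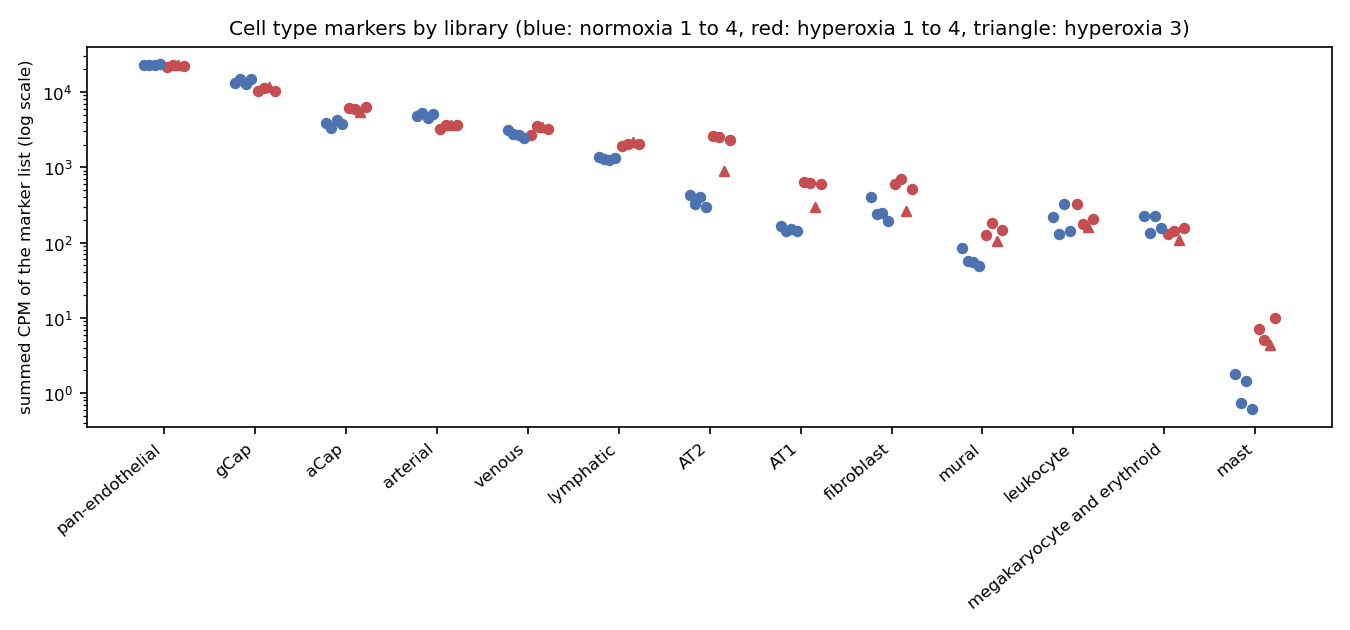
Summed CPM (y axis, log scale) of each cell type marker list (x axis) in normoxia libraries 1 to 4 (blue) and hyperoxia libraries 1 to 4 (red), with hyperoxia library 3 as a triangle. The pan-endothelial sums lie at 21661 to 23250 CPM in all libraries, while AT2, AT1, mural and mast cell sums are higher in every hyperoxia library and leukocyte sums overlap.

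AT2 markers were higher in 10 of 10 and markers of type 1 alveolar cells (AT1) in 9 of 9 that passed the filter. Sftpc, the surfactant protein of AT2 cells, stood at 149, 98.6, 102 and 74.6 CPM in normoxia and 1423, 1408, 419 and 1234 CPM in hyperoxia. Krt5, in the airway list, had no counts, which allows up to 0.186 CPM (3 counts) in the smallest library. Cav3 had none either, but it is not read here as an AT1 marker. Of 10 airway markers 4 passed the filter and 1 (Tppp3) was higher. Tppp3 stood at 65.6 and 92.7 CPM, whereas Ccdc39, the next most counted of that list, was at 3.67 and 3.30 CPM. The part of other cells in the Tppp3 value was not tested. Of 4 mesothelial markers only Msln passed the filter, with means of 0.266 CPM in normoxia and 1.47 CPM in hyperoxia. It could pass only through its hyperoxia libraries, so its direction was fixed by the filter. Hyperoxia library 3 had the least epithelial RNA of its group, so leaving it out keeps the libraries with the most. Without it the 6 called factors had log2 changes of -0.28 for Erg, 0.36 for Fli1, -0.48 for Ets1, -0.53 for Sox17, -0.45 for Gata2 and -0.41 for Lyl1. With the libraries scaled to the counts of the 16 pan-endothelial genes, the 6 passed the threshold too, from -0.22 for Erg to -0.45 for Sox17 among those that fell, and 0.44 for Fli1.

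With the mean log2 CPM of the AT2 markers as a covariate, chosen after the data were seen, no member had an adjusted p under 0.103 and 2 had an unadjusted p under 0.05 in edgeR. The score was 3.85 to 4.42 in normoxia and 5.48 to 6.87 in hyperoxia, so in that fit the score and the oxygen group cannot be told apart, and calls over all genes went from 5535 to 253. In that fit Fli1 had a log2 change of 0.91, Lyl1 of -0.95, Gata2 of -0.30, Ets1 of -0.26, Sox17 of -0.13 and Erg of -0.04. The signs of these 6 did not change, whereas those of Sox7 (0.24), Sox18 (-0.18) and Tal1 (0.22) turned. Since score and group cannot be told apart, no conclusion is drawn from these signs. With the fibroblast score in its place, whose ranges of 3.24 to 4.13 and 3.65 to 5.02 overlap, Fli1, Ets1, Sox17, Gata2 and Lyl1 passed and Erg did not (log2 fold change -0.15, adjusted p = 0.185).

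**Figure D5:**
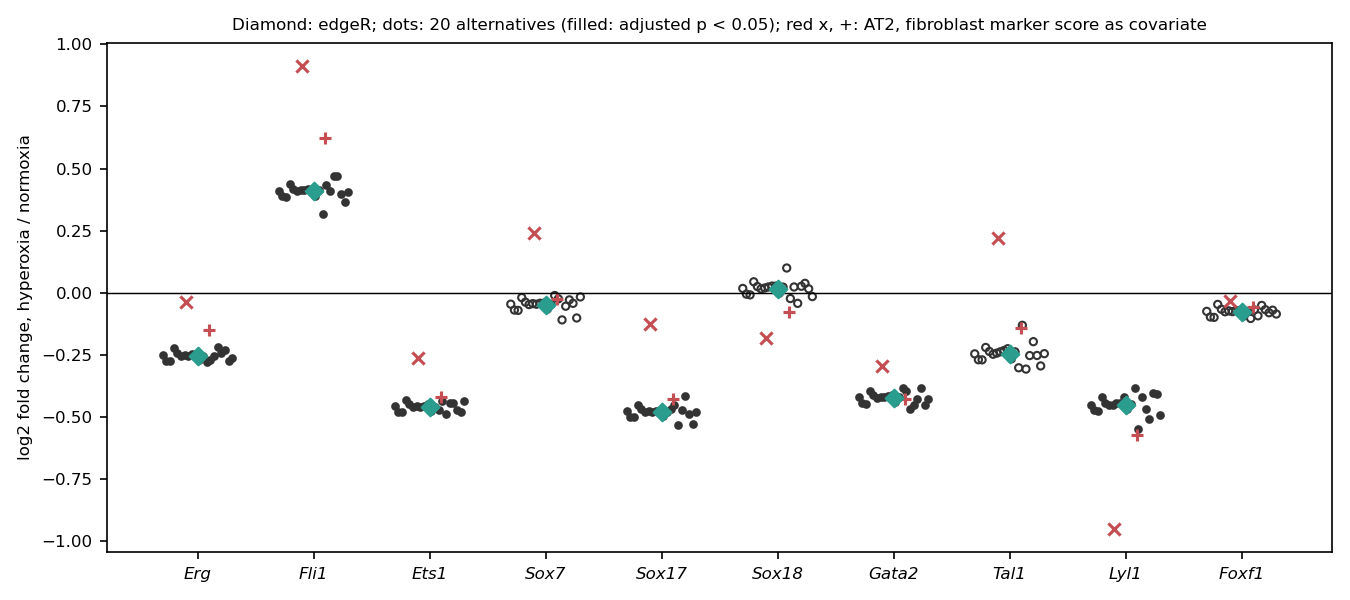
Log2 fold change (y axis) of each factor (x axis) in edgeR (diamond), in 20 alternative settings (dots, filled where the adjusted p was under 0.05) and with an AT2 (x) or fibroblast (+) marker score as covariate. Erg, Fli1, Ets1, Sox17, Gata2 and Lyl1 have filled dots throughout, and with the AT2 score Erg lies near 0.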

How the data were processed

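The authors deposited whole-number gene counts and FPKM values (counts per gene length and library size), both covering 54532 genes in 8 libraries. The submitters' processing notes name HISAT2 2.0.5, featureCounts 1.5.0-p3 and build mm10, and the study tested the counts with DESeq2. Strand and multi-mapping settings were not given in the sources used here. All 10 members have the coordinates of GENCODE M21 (GRCm38), which are printed.

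Counts were tested with edgeR 4.0.16 (quasi-likelihood F test, TMM normalization, filterByExpr) in R 4.3.3 on 4 normoxia and 4 hyperoxia libraries, grouped by title, with p-values adjusted by the Benjamini-Hochberg method over 15564 genes. CPM uses TMM-scaled library sizes. FPKM, the authors' values per gene length, served to order genes. SE follows from the F statistic. Log2 ratios of 2 members (0.5 added to counts) were compared by exact permutation. The script was tested on simulated data. Motifs were read in RefSeq promoter windows, and exon overlaps in GENCODE.

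Totals were 16098086 to 18300730 counts. No libraries were alike within sampling noise. Alternatives were DESeq2 1.42.0, limma 3.58.1 on voom values or log2 FPKM, other scalings and filters, a replicate block and leaving out each library.

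The members and gene lists were chosen with earlier results of these data known. Named were all members and partners, and in each other list from the 3 most abundant genes and the 3 with the largest called changes; Nfix, Gm37587 and Gm27530 overlap a member's exons. Ptprc, Gata1, Gata6, Prox1 and Krt5 are defining markers or list genes, and Cav3 is a list gene only.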

Additional observations from a re-analysis of the deposited data

How the results depend on the processing

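Across 20 alternative settings, Erg, Ets1, Sox17, Gata2 and Lyl1 stayed lower and Fli1 higher, each past the threshold, with adjusted p up to 0.0376, and Sox7, Sox18, Tal1 and Foxf1 stayed short of it. Leaving out 1 library at a time left 6 members past the threshold each time and 4526 to 5445 genes called. Over all 20, Tal1 came nearest to the threshold among the members that did not pass, at an adjusted p of 0.0501. The log2 fold change of Sox18, which is close to 0, turned to -0.0055 under upper quartile scaling, -0.0085 with library totals only, -0.0013 with protein-coding genes only, and -0.023, -0.043 and -0.015 without normoxia replicate 2, normoxia replicate 4 and hyperoxia replicate 4, and ran from -0.043 to 0.0997 over the libraries left out. With log2 of FPKM plus 1, 352 genes in place of 1087 changed by 1 or more on the log2 scale and passed the p threshold, as the added value shrinks low genes. Other scalings of the libraries moved the median log2 fold change of all genes by less than 0.1, but moved the balance of calls, from 2875 higher and 2660 lower to 2664 and 2995 under upper quartile scaling and 2644 and 3031 with library totals only, and to 3145 and 2273 when scaled to pan-endothelial counts.

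With the AT2 score as a covariate, added after the data were seen, 253 genes were called, 182 of them past the fold threshold, and members past the p threshold went from 6 to 0 (higher 0, lower 0; 2 at an unadjusted p under 0.05). Values that turned sign with it were those of Sox7 (0.24), Sox18 (-0.18) and Tal1 (0.22). With the fibroblast score, 2500 genes were called, 671 past the fold threshold, and Sox18 stood at -0.079. The cause of these differences was not tested.

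The titles give both groups replicate numbers 1 to 4. Deviations from the group means in same-numbered libraries correlated at 0.12, 0.04, -0.13 and -0.14, so the numbers were not taken to pair the libraries. With the number as a replicate block, 4792 genes and the same 6 members passed the threshold. Lists of few genes moved more: higher partners ran from 0 to 3 over these settings. Tal1 and Erg had a like log2 change (-0.25 each), with an SE of 0.11 for Tal1 and 0.052 for Erg.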
